A study of Mus musculus with 8 samples.

Results

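Igfbp3 and Igfbp6 encode insulin-like growth factor (IGF) binding proteins, secreted carriers of IGF. Both were followed in whole lung of Fra-2 transgenic mice as log2 ratios against wild-type lung. The genes were chosen by their ratios on these same arrays, which both lie below 0, so the ratios are given as a description and without a test. They are 2 of the 8741 genes that could be named on the array, and each had 1 probe. The mice were 4 males of 14 weeks transgenic for Fra-2 (the Fosl-2 gene) on a C57BL6 x CBA background. The reference was 1 pool, made from the lung RNA of 4 wild-type male mice matched for age and background, so it counts as a single control. There were 8 arrays, 2 for each mouse, and the second exchanged the dyes. No source used here names the promoter that drives the transgene or the number of founder lines. No probe in the annotation used here is named for Fosl2, so the transgene itself could not be checked. Younger mice of the study were not analysed here.

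Some limits hold for every value below. A value of -1 means that the transgenic lung held 50% of the RNA of the pool for that probe. The direction, transgenic over pool, is likely and not stated: it rests on the labels giving the transgenic RNA as channel 1 on all 8 arrays, and higher and lower would exchange throughout if it ran the other way. Probe names rest on an offset of 11 between annotation numbers and the numbers of the values. At this offset the mean ratios of probes of the same gene had a Spearman correlation of 0.224 over 4802 pairs, against 0.013 at offset 0 and at most 0.054 at any other offset tried. Among pairs with a probe in the block of numbers that holds Igfbp3 it was 0.176, and in the block that holds Igfbp6 it was 0.221. With 1 probe each, neither name could be checked against another probe of the same gene. The arrays gave 20585 to 20729 ratios each, with medians between -0.09 and 0.01. The Cy3 array of mouse 4 was wider than the rest, with an interquartile range of 0.906 on the log2 scale against 0.451 to 0.521. The files hold ratios and no intensities, so the level of lung markers could not be examined, and the number of mice and the single pool limit the precision.

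The IGF binding proteins hold IGF-I and IGF-II outside the cell and set how much of either can reach the IGF receptor. IGFBP-3 is the main carrier in blood, where it forms a complex with IGF and the acid-labile subunit, and it also binds partners other than IGF. IGFBP-6 is the family member with a marked preference for IGF-II. Proteases release IGF from these carriers by cutting them. In lung both genes are known from mesenchymal and vascular cells, and Igfbp6 also from mesothelium.

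Fra-2 is a subunit of AP-1, which binds short sites related to TGANTCA, so the promoters of both genes are shown. They are the 250 bases before the annotated start in RefSeq (GRCm38.p6), written 5′ to 3′ on the gene's strand, with matches to the motifs searched in capitals. The windows are chr11:7213924-7214173 on the minus strand for Igfbp3 and chr15:102143936-102144185 on the plus strand for Igfbp6.

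Igfbp3: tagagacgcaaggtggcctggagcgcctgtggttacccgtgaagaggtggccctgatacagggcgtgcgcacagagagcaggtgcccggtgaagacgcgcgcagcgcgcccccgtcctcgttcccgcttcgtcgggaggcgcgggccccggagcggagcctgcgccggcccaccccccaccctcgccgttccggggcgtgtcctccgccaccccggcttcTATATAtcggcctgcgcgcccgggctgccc

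Igfbp6: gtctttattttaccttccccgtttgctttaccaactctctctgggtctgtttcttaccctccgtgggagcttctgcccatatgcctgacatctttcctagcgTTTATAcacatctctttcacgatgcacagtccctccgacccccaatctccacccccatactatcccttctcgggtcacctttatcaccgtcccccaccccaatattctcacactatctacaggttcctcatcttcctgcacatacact

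The promoters are unlike each other in composition. That of Igfbp3 is 73.2% G and C and holds 32 CpG pairs, and 94.3% of the 32851 promoters in the table have a lower G and C content. That of Igfbp6 is 49.6% G and C, holds 7 CpG pairs and is 71.2% pyrimidine. The median promoter has 52.4% G and C and 6 CpG pairs. The capitals in Igfbp3 mark TATATA, whose first base lies 30 bases before the start, the place of a TATA element; 5.25% of promoters hold these letters on either strand. The capitals in Igfbp6 mark TATAAA read on the other strand, 148 bases before the start; 12.4% of promoters hold it. TATATA and TATAAA can overlap each other, and did not here. Neither window holds TGANTCA, which 6.75% of promoters do, nor the related TGACGTCA (1.55%) nor the GC box GGGCGG (32.7%). These are matches of letters within a short window. They do not show a site, and their absence says nothing about AP-1 elsewhere at these genes.

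Igfbp3 was far lower in transgenic lung than in the pool. In mouse 1 its log2 ratio was -1.74 where Cy5 carried the transgenic RNA and -1.95 where Cy3 did. Mouse 2 gave -1.47 and -1.61, and mouse 3 gave -1.71 and -1.58. Mouse 4 gave -2.30 and -2.79, the lowest value of each dye. All 8 arrays lay below 0, from -2.79 to -1.47, and the arrays of mouse 4 did not overlap those of the other mice. Averaged over the arrays of a mouse, Igfbp3 was 3.60-fold lower in mouse 1, 2.90-fold in mouse 2, 3.14-fold in mouse 3 and 5.83-fold in mouse 4. The mean was -1.89 ± 0.45 (SD, n = 4 mice), or 26.9% of the pool. It ranked 8 from the lowest among 12202 named probes. With the direction turned, it would be 3.72-fold higher than the pool and rank 8 from the highest. In bulk lung RNA, fewer cells that make a transcript and less transcript per cell cannot be told apart.

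Igfbp6 was lower by much less. Its log2 ratios were -0.55 in Cy5 and -0.68 in Cy3 for mouse 1, and -0.24 and -0.51 for mouse 2. They were -0.33 and -0.35 for mouse 3, and -0.39 and -0.60 for mouse 4. All 8 arrays again lay below 0, between -0.68 and -0.24. Mouse means ran from -0.62 in mouse 1 to -0.34 in mouse 3, a 1.53-fold and a 1.26-fold lower level. The mean was -0.46 ± 0.13 (SD, n = 4 mice), or 72.9% of the pool. Of the named probes, 9.61% had a lower mean. With the direction turned, Igfbp6 would be 1.37-fold higher than the pool, with 9.61% of probes above it.

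Being below the pool throughout is not rare on these arrays. Of 20392 probes with 8 values, 14.7% lay below 0 on all 8, and limma, run over mouse means, called 14.6% of 20621 probes lower and 11.1% higher. Since this contrast chose both genes, nothing is read from their place in it. The mean of Igfbp3 stayed between -2.01 and -1.68 and that of Igfbp6 between -0.50 and -0.40 when each mouse was left out in turn.

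**Figure D1:**
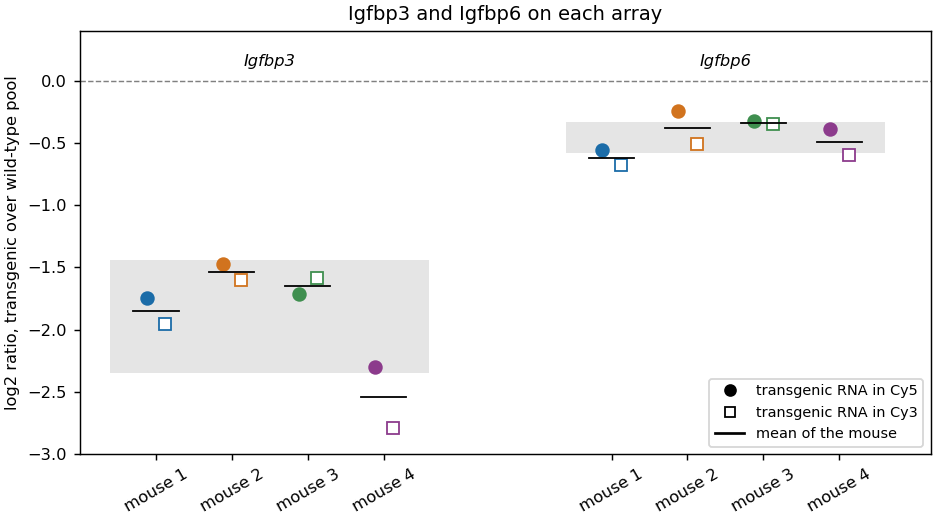
Log2 ratio of transgenic lung over the wild-type pool (vertical axis) for Igfbp3 and Igfbp6 in mice 1 to 4 (horizontal axis). Filled circles have the transgenic RNA in Cy5, open squares in Cy3, black lines are the mean of a mouse and grey bands the mean ± SD over 4 mice; all 16 points lie below 0, and the lowest Igfbp6 array lies 0.794 above the highest Igfbp3 array.

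The size of the ratio set the genes apart on every array. The lowest Igfbp6 ratio (-0.68) stood above the highest Igfbp3 ratio (-1.47). Within an array, Igfbp3 minus Igfbp6 lay between -2.19 and -1.09. The difference of mouse means was -1.23 in mouse 1, -1.16 in mouse 2, -1.31 in mouse 3 and -2.05 in mouse 4 (mean -1.44 ± 0.41, SD, n = 4 mice). The mice also came in a different order for each gene. For Igfbp3 the lowest was mouse 4, then 1, 3 and 2. For Igfbp6 it was mouse 1, then 4, 2 and 3. In both genes mice 1 and 4 were below mice 2 and 3.

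A comparison that did not choose the genes is the one between the transgenic mice. It asks whether mice differ beyond the error between the 2 arrays of a mouse, with the dye as a covariate. The range over mice was 1.01 for Igfbp3, against a median of 0.42 over all probes. That median covers probes of any mean, and Igfbp3 was chosen with a mean far from 0. Whether ranges grow with the size of the ratio was not tested, so nothing is read from this contrast of ranges. The limma F test gave Igfbp3 an unadjusted p of 0.00518 and an adjusted p of 0.133, so it did not pass. For Igfbp6 the range was 0.28 (adjusted p = 0.567). In all, 0.986% of probes passed this test. Without mouse 4 the Igfbp3 range was 0.309. With values that over 60 probes of an array share set to missing, which tests fewer probes, Igfbp3 passed at adjusted p = 0.0134. None of the 16 member ratios was such a shared value.

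The dye orientation was compared within each mouse. Igfbp3 in Cy5 minus Cy3 was 0.21, 0.13, -0.13 and 0.495 in mice 1 to 4, with a mean of 0.18 ± 0.26 (SD, n = 4 mice, adjusted p = 0.416 by limma). For Igfbp6 the differences were 0.12, 0.27, 0.02 and 0.21, with a mean of 0.16 ± 0.11 (adjusted p = 0.373). The Igfbp6 ratio was thus nearer 0 in Cy5 for 4 of 4 mice, by an amount that missed the threshold. Of all probes, 0.0049% passed, that is 1 of 20392, while 4912 had an unadjusted p under 0.05. The dye gap was wide in mouse 4 for probes in general: the median size of the difference between the arrays was 0.435 there and 0.177 to 0.239 in mice 1 to 3. On the Cy5 arrays alone the means were -1.81 for Igfbp3 and -0.38 for Igfbp6, and on the Cy3 arrays alone -1.98 and -0.53.

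The other genes of the IGF system were read with the probes of a gene averaged, and tested with limma over all 8692 named genes. Of 108 listed genes, 65 were measured. Of these 13 were higher (20%) and 21 lower (32.3%), against 13.4% higher and 18.3% lower among all genes. Their median was -0.15, against -0.01 for all genes. The lists were drawn up by role and not by how the genes moved, but with earlier results of these data known. Fewer genes were called with a mouse left out. There were 5 higher and 16 lower without mouse 1, and 6 and 14 without mouse 2. Without mouse 3 there were 8 and 18, and without mouse 4 there were 13 and 18. Over all probes the calls fell too, from 5302 to 2547, 2834, 3605 and 4064 without mice 1 to 4 in turn. Of the 65 genes, 31 had more than 1 probe, and 12 of those had probes on both sides of 0.

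The other binding proteins moved in both directions. Igfbp4, an inhibitory carrier of IGF, had ratios of -0.875, -0.835, -0.71 and -1.10 in mice 1 to 4 and fell by 0.88 ± 0.17 (SD, n = 4 mice, adjusted p = 0.00121). Its place among the family lay between Igfbp3 and Igfbp6, and its range over mice touched neither the Igfbp3 nor the Igfbp6 range. Igfbp1, a carrier known for its response to insulin and stress, rose by 0.90 ± 0.43 (adjusted p = 0.00647), with ratios of 0.776, 0.634, 0.637 and 1.54. Averaged over its arrays, mouse 4, the lowest for Igfbp3, was the highest for Igfbp1. The margin rests on its Cy3 array, the widest of all, which gave 2.15. Its Cy5 array gave 0.92, against 0.75 to 0.906 on the Cy5 arrays of the other mice. Nothing is therefore read from the opposite places of mouse 4 in these genes. Without mouse 4 the Igfbp1 mean was 0.68. Igfbp2 had 0.681, 0.364, 0.281 and -0.151, a mean of 0.29 ± 0.34 that missed the threshold (adjusted p = 0.122). Igfbp5 is not named on the array here. In order of the mean, the family ran Igfbp3, Igfbp4, Igfbp6, Igfbp2 and Igfbp1. Only Igfbp2 and Igfbp1 overlapped as neighbours in their mouse values.

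Igfbp1 is also the neighbour of Igfbp3 on chromosome 11, with no other protein-coding gene between them in RefSeq (GRCm38.p6). So 2 adjacent binding protein genes had ratios of opposite sign in each of the 4 mice. The other 5 genes among the nearest 3 on either side of Igfbp3 are not named on the array here. Of the 6 such genes around Igfbp6 on chromosome 15, Csad, which encodes an enzyme of taurine synthesis, is named and fell by 0.63 ± 0.09 (adjusted p = 0.00191). This look at neighbours was chosen after values were seen.

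**Figure D2:**
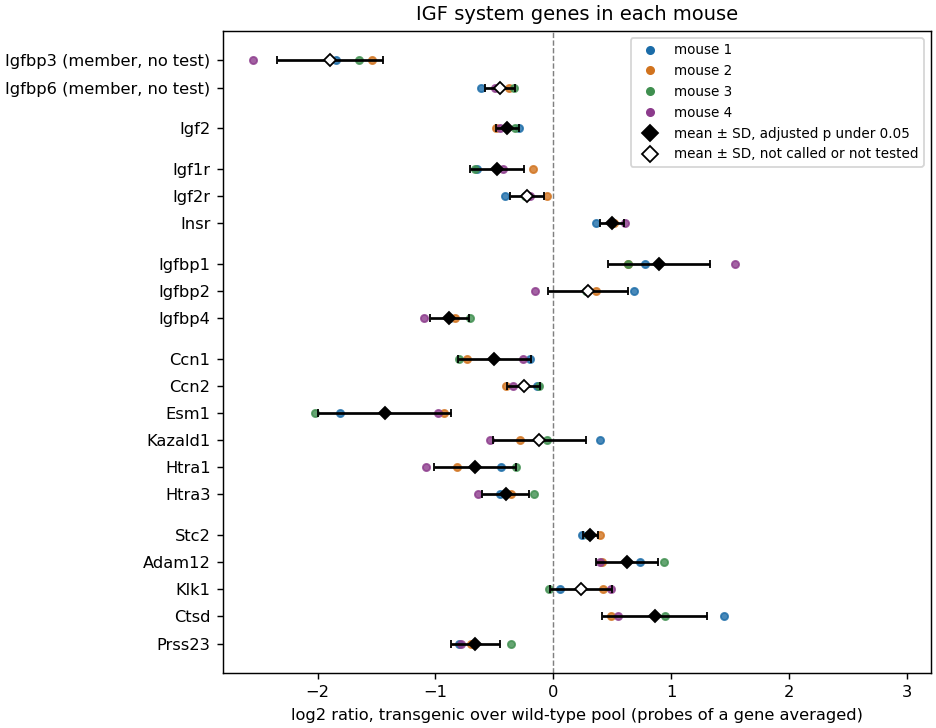
Log2 ratio of transgenic lung over the wild-type pool (horizontal axis) for Igfbp3, Igfbp6 and the measured ligands, receptors, binding proteins, related proteins and proteases. Coloured points are mice 1 to 4 and diamonds the mean ± SD over mice, filled where adjusted p was under 0.05; among the genes drawn, Igfbp3 has the lowest mean at -1.89, Esm1 follows at -1.43, and Ctsd and Igfbp1 have the highest at 0.86 and 0.90.

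Among ligands, Igf2, which encodes the preferred ligand of IGFBP-6, fell by 0.39 ± 0.09 (adjusted p = 0.00904), from -0.49 to -0.295 over mice. Igf1 is not named on the array here. The receptor gene Igf1r fell by 0.48 ± 0.23 as the mean of 4 probes (adjusted p = 0.0124), but its probes disagreed. They had means of -1.25, -0.69, -0.35 and 0.38, of which the lowest pair was called lower and the highest called higher. Without mouse 1 the gene was not called (adjusted p = 0.0558). Igf2r, the clearance receptor of IGF-II, had -0.22 ± 0.15 and missed the threshold (adjusted p = 0.0774). Its 3 probes disagreed too. Of these 2 were called lower (-0.32 and -0.35, adjusted p = 0.0372 and 0.0208), and the other had 0.008 (adjusted p = 0.965). The insulin receptor gene Insr rose by 0.50 ± 0.10 (adjusted p = 0.00442), and was not called from the Cy5 arrays alone (0.25, adjusted p = 0.0518).

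Of 6 measured genes for proteins related to the IGFBP family or its cleavage, 4 fell (66.7%, against 18.3% of all genes) and 0 rose. Esm1, which encodes an endothelial proteoglycan, fell by 1.43 ± 0.56 (adjusted p = 0.00307). Its mice split otherwise than those of Igfbp3, with -1.81 and -2.02 in mice 1 and 3 and -0.92 and -0.975 in mice 2 and 4. The serine protease genes Htra1 (-0.67 ± 0.35, adjusted p = 0.0102) and Htra3 (-0.40 ± 0.20, adjusted p = 0.0169) and the matricellular gene Ccn1 (-0.50 ± 0.31, adjusted p = 0.0201) fell too. Leaving out mouse 1 or mouse 2 ended the call of Htra3 (adjusted p = 0.0671 and 0.0538), and leaving out mouse 2 or mouse 3 ended that of Ccn1 (adjusted p = 0.0803 and 0.0648). Neither was called from the Cy5 arrays alone (adjusted p = 0.064 for Htra3 and 0.0592 for Ccn1). Ccn2 had -0.25 ± 0.14 (adjusted p = 0.0525) and Kazald1 -0.12 ± 0.39 (adjusted p = 0.554). The 2 probes of Ccn2 disagreed, with -0.60 (adjusted p = 0.0268) and 0.09 (adjusted p = 0.467).

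Of 5 measured genes listed as IGFBP proteases or partners of their complexes, with the inhibitor Stc2 among them, 3 rose and 1 fell. Among all genes 13.4% rose and 18.3% fell. The serine protease genes Htra1 and Htra3, which fell, are counted with the related proteins above and not here. Ctsd, the gene of cathepsin D, which can cleave IGFBP-3, rose by 0.86 ± 0.45 (adjusted p = 0.00806), with both probes called higher. Adam12, the gene of a metalloprotease of IGFBP-3, rose by 0.62 ± 0.26 (adjusted p = 0.0067). Both were highest in mice 1 and 3. Stc2, the gene of an inhibitor of the protease PAPP-A, rose by 0.31 ± 0.06 (adjusted p = 0.016). Its call ended when mouse 1, 2 or 3 was left out (adjusted p = 0.0521 to 0.0714), in a fit over arrays blocked by mouse (adjusted p = 0.0603) and in the Cy5 arrays taken alone (0.03, adjusted p = 0.828). Prss23, whose action on IGFBPs was not examined, fell by 0.66 ± 0.21 (adjusted p = 0.00365), and Klk1 had 0.23 ± 0.26 (adjusted p = 0.14). Ctsd is abundant in macrophages, whose marker list was higher (median 1.20 over 10 genes, 1.68 and 1.35 in mice 1 and 3 and 0.843 and 0.931 in mice 2 and 4); the part of macrophages in the Ctsd ratio was not tested. The RNA-binding protein gene Igf2bp3 had 0.25 ± 0.50 (adjusted p = 0.294).

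The intracellular chain behind the insulin and IGF receptors had 4 genes higher and 9 lower of 28 measured, with a median of -0.11. The share higher (14.3%) was near the 13.4% of all genes, and the share lower was 32.1% against 18.3%. Ptpn11, the gene of the phosphatase SHP2, fell by 0.82 ± 0.16 (adjusted p = 0.00137), and the forkhead genes Foxo1 and Foxo4 fell by 0.70 ± 0.28 and 0.49 ± 0.19. The adaptor gene Grb14 fell by 0.59 ± 0.20, the kinase gene Map2k1 by 0.54 ± 0.28 and the PI3-kinase gene Pik3cb by 0.44 ± 0.15. Socs1, a feedback inhibitor of cytokine signalling, rose by 0.91 ± 0.46 (adjusted p = 0.00726), and the docking protein gene Irs4 by 0.455 ± 0.37. Adjusted p for Foxo1, Foxo4, Grb14, Map2k1, Pik3cb and Irs4 lay between 0.00471 and 0.0412. Map2k1 was not called when mouse 2 was left out (adjusted p = 0.0524). The call of Irs4 ended when mouse 1, 2 or 4 was left out (adjusted p = 0.0621 to 0.122) and in a fit over arrays blocked by mouse with a dye term (adjusted p = 0.0966), and the Cy3 arrays alone did not call it (adjusted p = 0.214).

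The probes most like each gene were found as those with the smallest root mean square difference over the 8 arrays among 12096 named probes. For Igfbp3 they were Pcolce2 (difference 0.337), Inmt (0.366), Ednrb (0.401), Cyp26b1 (0.424) and Bex2 (0.435). Pcolce2 encodes an enhancer of procollagen processing, Inmt a methyltransferase, Ednrb an endothelin receptor and Cyp26b1 an enzyme of retinoic acid breakdown. Pcolce2 had mouse means of -1.45, -1.76, -1.79 and -2.70. Mouse 4 was the lowest in each of these 5 probes, which is no separate result: they were chosen by their likeness to Igfbp3 on these arrays, and the Cy3 array of mouse 4 was the widest of the 8. The other probe of Ednrb, with a mean of -0.19, did not follow it. For Igfbp6 the nearest were Trim24 (0.0824), Klhl24 (0.0854), St6galnac6 (0.0865), Isca1 (0.0889) and Cnst (0.0892), with means from -0.47 to -0.40. The measure rests mainly on the mean over mice, and the points are 4 mice measured against the same pool.

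**Figure D3:**
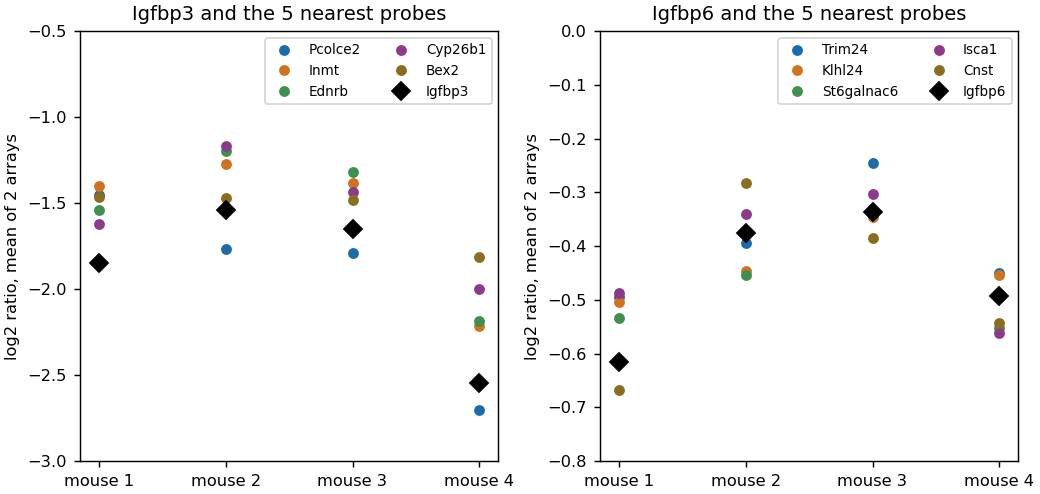
Mean log2 ratio of the 2 arrays of each mouse (vertical axes, not at the same scale) for Igfbp3, Igfbp6 (black diamonds) and the 5 named probes nearest to each (coloured points). The likeness was used to choose the probes. Igfbp3 runs from -2.54 to -1.54, and the probes near Igfbp6 lie between -0.67 and -0.24.

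Marker lists of cell types known for these transcripts were set beside them, by counts and medians only. Of all named genes 18.3% fell and 13.4% rose. Of 13 endothelial genes 3 fell (23.1%) and 2 rose (15.4%), shares near those of all genes, with a median of -0.04. Eng (-0.61 ± 0.29, adjusted p = 0.0091), Plvap (-0.60 ± 0.52, adjusted p = 0.0426) and Ednrb (-0.87 ± 0.34, adjusted p = 0.00381) fell. With mouse 1, 2 or 4 left out 2 endothelial genes fell, Eng and Ednrb, so Plvap lost its call. Sox17 (0.575 ± 0.17, adjusted p = 0.0043) and Ramp2 (0.40 ± 0.22, adjusted p = 0.0211) rose, and Ramp2 lost its call when mouse 1 or 2 was left out (adjusted p = 0.0876 and 0.0838) and in the Cy3 arrays taken alone (0.15, adjusted p = 0.49). The other 8 did not pass, with adjusted p from 0.0891 to 0.899. Of 10 pericyte and smooth muscle genes 5 fell (50%) and 1 rose (median -0.32). Of 15 fibroblast genes 6 fell (40%) and 1 rose (median -0.27), led by Inmt (-1.57 ± 0.43) and Ogn (-1.41 ± 0.43) against Cd34 (1.17 ± 0.49). Not called were 8 fibroblast genes, with adjusted p from 0.0774 to 0.964. Among them were Pdgfra (-0.17), Col1a1 (-0.27), Col1a2 (0.01), Col3a1 (-0.22) and Thy1 (0.17). The fibroblast medians were -0.165, -0.60, -0.13 and -0.63 in mice 1 to 4. With a mouse left out, 5 to 8 of the fibroblast genes fell. The part of these cells in the Igfbp3 ratio was not tested.

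The mesothelial list was set beside Igfbp6: of its 5 measured genes 3 rose, with medians from 0.177 to 0.764 over mice, and Msln rose by 1.31 ± 0.17 (adjusted p = 5.3e-04). The count was 5 without mouse 3 and 2 without mouse 4. Mouse 3 had the lowest mesothelial median and the Igfbp6 ratio nearest 0. Krt19, Krt8, Krt18 and Cpe were each lowest in mouse 3, while Msln was not (1.30 there, against 1.17 in mouse 1). The lung epithelial list also had its lowest median in mouse 3 (-0.278, against -0.049 to 0.101 in the other mice). The part of epithelium in the keratin ratios, and so in the mesothelial median, was not tested. Of 12 adipose genes 8 fell (66.7%) and 1 rose (median -0.78), and of 15 heart and skeletal muscle genes 14 fell (93.3%, median -0.67). In the macrophage list and in the lymphocyte list, 7 of 10 genes rose (70%) and 1 fell. Of 13 lung epithelial genes 3 fell (23.1%) and 2 rose (15.4%), near the shares of all genes (median -0.07). With mouse 1 or 2 left out, 1 gene rose in the endothelial and 1 in the epithelial list. All of these move with the same contrast as Igfbp3 and Igfbp6 through the shared pool, and their part in either ratio was not tested.

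**Figure D4:**
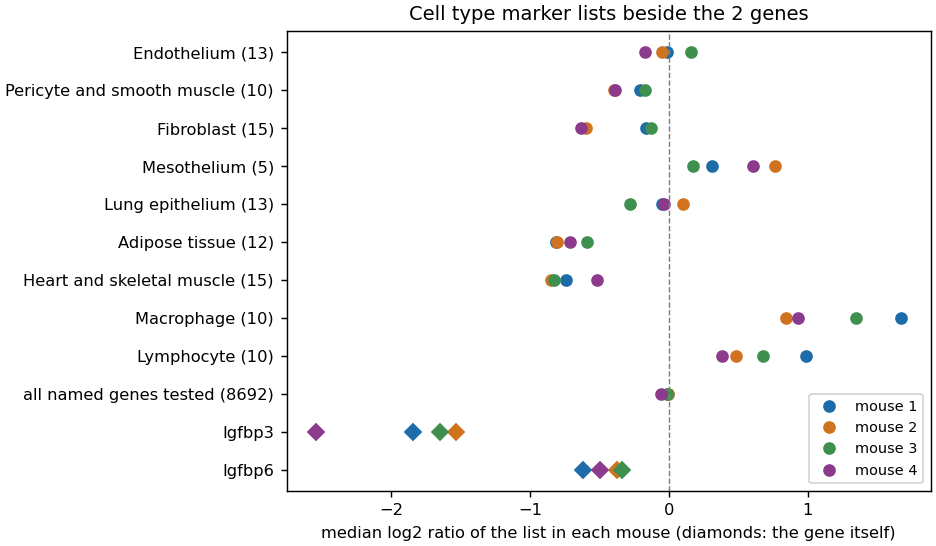
Median log2 ratio of marker lists in each mouse (circles, number of measured genes in brackets) above the ratios of Igfbp3 and Igfbp6 (diamonds), on one horizontal axis. Igfbp3 lies below every list median in every mouse, while Igfbp6 lies among the medians of the fibroblast, adipose and muscle lists, which run from -0.851 to -0.128. Both genes were chosen by their ratios in this contrast, and single genes are set beside medians, so nothing is read from their place.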

How the data were processed

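Arrays with 2 channels compared lung RNA of 4 transgenic mice with 1 wild-type pool. The deposited values are log2 ratios made by the authors, 1 per probe and array, for 20794 probes. The scale follows from 498 deposited constants beyond 10 in size, which were set to missing. A further 706 were missing as deposited. No source used here gives the background correction, normalization or centring.

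Annotation number plus 11 gave the probe, up to annotation number 20237, with symbols updated from RefSeq (GRCm38.p6), which named 12296 probes of 8741 genes. The 2 arrays of a mouse, with correlations between 0.389 and 0.685, were averaged. Limma 3.58.1 under R 4.3.3 tested mouse means for a difference from 0 (lmFit and eBayes, two-sided, Benjamini-Hochberg over all probes or genes, threshold 0.05), mice with its F test and dyes on within-mouse differences. The spread among control mice does not enter such a test. The tests were also run on simulated data with planted changes, to check the code. No error rate is drawn from that run. Python 3.11.15, pandas 2.3.3 and matplotlib 3.10.9 did the rest.

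Members and lists were chosen with earlier results of these data known. Named were every measured gene of the ligand, receptor, binding protein, related, protease and mRNA-binding lists, up to 8 called genes of each other list, up to 2 called marker genes per direction, and 5 nearest probes. Csad and Plvap were named after their values were seen. Alternatives left out mice, dyes or values shared by over 60 probes, changed scaling, or used the mouse as a block.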

Additional observations from a re-analysis of the deposited data

Results flagged for a closer look

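Among Igfbp3, Igfbp6 and the named genes of the IGF system, 37 genes were examined for a mouse far from the other 3, and 3 stood out, where chance gives about 1 in 20. Igfbp1 was 1.536 in mouse 4 against 0.634 to 0.776 in the others. In mouse 4 its Cy5 array gave 0.92 and its Cy3 array, the widest of the 8, gave 2.15. Igf2bp3 was 0.998 in mouse 4 against -0.04 to 0.096. Its 2 probes disagreed within mouse 4. A probe gave 1.17 in Cy5 and 0.088 in Cy3, and the other gave -0.003 and 2.73. The high values thus came from different arrays. Of the 16 values of Igf2bp3, 8 were values shared by many probes of an array. Rara, which encodes a retinoic acid receptor, was 0.13 in mouse 3 against 0.244 to 0.264. Neither Igfbp3 nor Igfbp6 had such a mouse.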

How the results depend on the processing

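The means of Igfbp3 and Igfbp6 kept their sign and moved by less than 1 SD under every alternative run. The count of called probes, 5302, ranged from 2547 (without mouse 1) to 4064 when mice were left out and was 3190 on the Cy3 arrays. The 34 called genes of the IGF system became 20 to 31 without a mouse, the 13 higher ones 5 to 13, and 7 on the Cy3 arrays. Probes that differed between mice numbered 201, and 0 to 495 without a mouse, 84 without the dye term, 497 after quantile normalization and 995 with shared values missing, where the Igfbp3 range of 1.006 passed. The dye effect, 1 probe, gave 0 to 33: 33 after quantile normalization, 7 with shared values missing and 0 without mouse 1. Setting shared values to missing and leaving out the Cy3 array of mouse 4 were chosen after seeing the data. The naming rule picked 56 called genes, marker genes that the text does not describe included; 38 kept their call under every alternative and 0 reversed. Causes of these changes were not tested. The mouse as a block changed no count by over 1.5 times. No paired analysis was possible because transgenic mice have no matching control animals, only 1 pool. Signal over background is unknown.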

Other observations

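Of 6 measured genes of the growth hormone axis, which drives IGF production in liver, 2 rose and 1 fell, against 13.4% and 18.3% of all genes tested. Stat5b, the gene of a transcription factor of this axis, fell by 0.72 ± 0.27 (adjusted p = 0.00459, limma, n = 4 mice), and its inhibitors Cish (0.42 ± 0.18, adjusted p = 0.0121) and Socs2 (0.26 ± 0.14, adjusted p = 0.0464) rose. Leaving out mouse 1 ended the call of Cish (adjusted p = 0.0555), and leaving out any mouse ended that of Socs2 (adjusted p = 0.0534 to 0.173). In the Cy3 arrays taken alone neither was called (Cish 0.28, adjusted p = 0.13, and Socs2 0.12, adjusted p = 0.459), nor was Socs2 with values beyond 10 kept (adjusted p = 0.0554).

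Of 12 measured genes of other reported partners of IGFBP-3 and IGFBP-6, 2 rose (16.7%) and 3 fell (25%), shares near the 13.4% and 18.3% of all genes. Tgfbr2, the gene of a TGF-beta receptor, fell by 0.52 ± 0.15 (adjusted p = 0.00505) with both probes called lower. The importin gene Kpnb1 (-0.37 ± 0.18, adjusted p = 0.0203) and the transferrin gene Trf (-0.29 ± 0.12, adjusted p = 0.0285) fell, and the nuclear receptor genes Vdr (0.26 ± 0.07, adjusted p = 0.031) and Rara (0.22 ± 0.06, adjusted p = 0.0482) rose. The 2 probes of Trf disagreed, with -0.52 (adjusted p = 0.0129) and -0.07 (adjusted p = 0.558). So did the 2 of Vdr, with 0.515 (adjusted p = 0.00518) and 0.003 (adjusted p = 0.985). The only probe of Rara was not called in the fit over all probes (adjusted p = 0.0767). Kpnb1 missed the threshold without mouse 2, Trf without mouse 1, 3 or 4, Vdr without mouse 1, 2 or 3 and Rara without any 1 of the 4 mice (adjusted p = 0.058 to 0.162). From the Cy3 arrays alone Kpnb1 (adjusted p = 0.0568) and Vdr (0.18, adjusted p = 0.262) were not called, and from the Cy5 arrays alone Trf (adjusted p = 0.0915) and Rara (0.11, adjusted p = 0.385) were not. With shared values missing Rara was 0.125 (adjusted p = 0.335). Phb2, the gene of the IGFBP-6 partner prohibitin 2, had -0.22 ± 0.15 (adjusted p = 0.0812), and Lrp1, a receptor reported for IGFBP-3, had 0.001 ± 0.19 (adjusted p = 0.994).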
